A study of Saccharomyces cerevisiae with 6 samples.

Results

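Succinate dehydrogenase, the complex II of the mitochondrial respiratory chain, was described here through the yeast genes SDH1 to SDH9. The 9 genes were chosen by name, with the log2 ratios of all 3 arrays known, so their ratios are given as a description and not as a test. Of the 9, 8 had a spot on the array, among 5379 genes with a spot in all. SDH2, SDH3, SDH4, SDH7 and SDH8 had values on all 3 arrays, SDH1, SDH5 and SDH9 on arrays 1 and 2 alone, and SDH6 was not analysed here.

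The cells were Saccharomyces cerevisiae of the laboratory strain S288C, in rich glucose medium at 25 °C. The treated cultures received 12.6 µM zinc pyrithione (ZnPT), a zinc complex used against fungi and bacteria, for 2 h from the exponential phase, and the untreated cultures grew on for the same 2 h. Treated messenger RNA carried Cy5 and untreated messenger RNA Cy3, both on 1 two-colour array, and 3 arrays held independent biological samples. A high-power and a low-power scan were made of every array and averaged to 1 value. S288C is a strain whose HAP1 gene, which encodes a heme-responsive activator of respiratory genes, is disrupted by a transposon, so treated and untreated cells share that defect. ZnPT was added in dimethyl sulfoxide and the controls are labelled as without treatment, so solvent and compound cannot be told apart.

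All values are log2 ratios, read as treated over untreated. The deposited table does not state that direction, which is the likely one from the dyes, and without a dye-swapped array dye and treatment cannot be told apart. A ratio gives a difference between cultures and not a level, and spot intensities were not used here. High-power scans held 4693 to 5737 spot values and low-power scans 1789 to 3372. The number of arrays limits the precision.

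Succinate dehydrogenase oxidises succinate to fumarate in the TCA cycle and passes the electrons to ubiquinone, and so belongs to both pathways. The electrons run from a covalently bound flavin in Sdh1 through the iron-sulfur clusters of Sdh2 to the ubiquinone site and heme at the membrane anchor of Sdh3 and Sdh4. Dedicated assembly factors help to attach the flavin and protect the partly built subunits. In yeast the subunit genes are known as targets of glucose repression and of the Hap2/3/4/5 activator, and SDH4 messenger RNA is a known target of the RNA-binding proteins Cth1 and Cth2, which promote transcript decay when iron is scarce.

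The 3 subunit genes of the iron-sulfur and membrane parts were far lower in treated cells on every array. SDH3 (YKL141W), which encodes a membrane anchor subunit that also serves in protein import, had log2 ratios of -3.48, -3.65 and -3.81 on arrays 1, 2 and 3. SDH2 (YLL041C), the gene of the iron-sulfur subunit, had -3.08, -3.45 and -3.16. SDH4 (YDR178W), the gene of the other membrane anchor subunit, had -2.72, -2.83 and -3.40. No value of these 3 genes came near 0, and their ranges over arrays spanned 0.33 for SDH3, 0.37 for SDH2 and 0.68 for SDH4.

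Averaged over arrays, SDH3 stood at -3.65 ± 0.17, which is 12.5-fold lower in treated cells (SD, n = 3). SDH2 stood at -3.23 ± 0.19, or 9.37-fold lower, and SDH4 at -2.98 ± 0.37, or 7.92-fold lower (SD, n = 3 each). In the fit over all genes, limma called 3 of the 5 tested members lower at an adjusted p under 0.05, where 9.6% of the 4312 genes tested were called lower. Because the members were chosen with these ratios known, nothing is read from that count.

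SDH1 (YKL148C), the gene of the flavin subunit that holds the succinate site, was lower too, by less. It had log2 ratios of -1.67 and -2.40 on arrays 1 and 2, a mean of -2.04 ± 0.52, or 4.11-fold lower (SD, n = 2). Array 3 gave no value, and neither low-power scan of the other arrays did, so that SDH1 rests on 2 scan values. It was not tested in the main fit. When 2 arrays sufficed, and without replicate 3, SDH1 was among the genes tested. In each of these fits 4 members were called lower, beside 416 and 318 genes over the whole table.

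**Figure D1:**
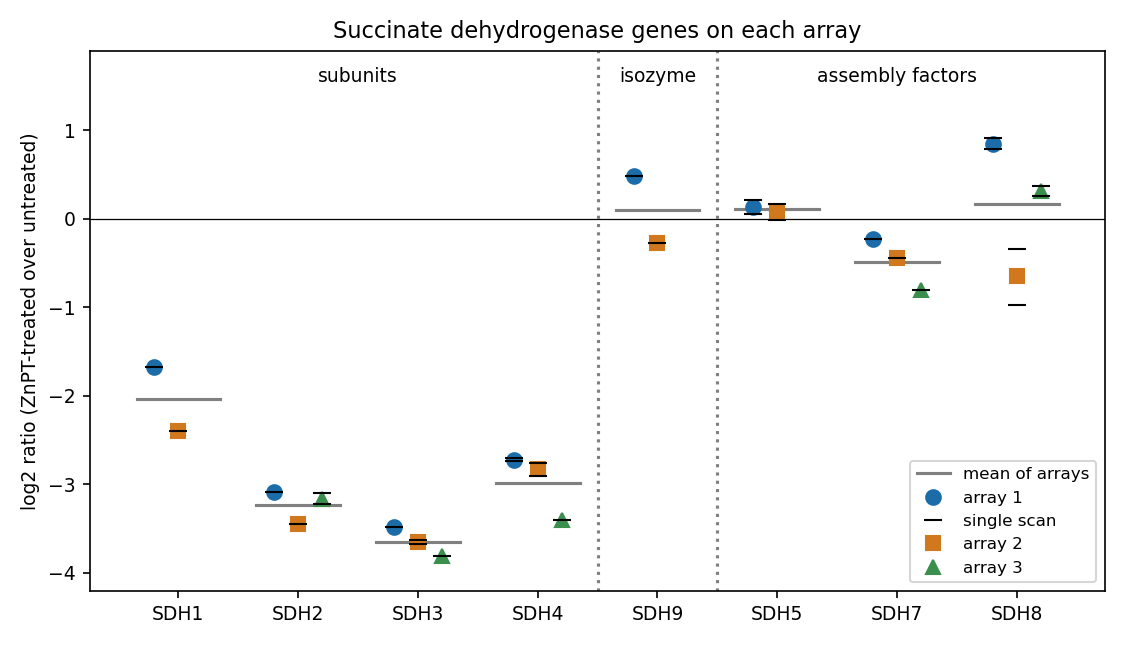
Log2 ratios of treated over untreated cells for the 8 succinate dehydrogenase genes with a spot, by array (coloured symbols), with single scans as black dashes and the mean of the arrays as a grey line. SDH3, SDH2 and SDH4 lie between -3.81 and -2.72 on every array, SDH1 at -1.67 and -2.40, and the isozyme and assembly factor genes between -0.80 and 0.85.

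Differences within an array, which remove what the 2 genes share there, placed the flavin subunit above the other subunits on both arrays that measured it. SDH3 minus SDH1 was -1.81 and -1.25 on arrays 1 and 2, a mean of -1.53 ± 0.39 (SD, n = 2). SDH2 minus SDH1 was -1.40 and -1.04, with a mean of -1.22 ± 0.26, and SDH4 minus SDH1 was -1.05 and -0.43, with a mean of -0.74 ± 0.44 (SD, n = 2 each). All 3 differences kept one sign on both arrays, and that of SDH4 was the least separated from its spread. With each scan centred within sets of 36 spots with neighbouring numbers, the mean differences were -1.19 for SDH3, -0.89 for SDH2 and -0.42 for SDH4, the last no larger than the SD of 0.44 between arrays without that centring.

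Among the other 3 subunit genes, SDH3 was the lowest on each array. SDH3 minus SDH4 was -0.76, -0.82 and -0.41 on arrays 1, 2 and 3, and SDH3 minus SDH2 was -0.40, -0.21 and -0.65. SDH2 and SDH4 had no fixed order: SDH2 minus SDH4 was -0.36, -0.62 and 0.24, a mean of -0.24 ± 0.44 (SD, n = 3), which is within the spread.

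Both laser powers gave nearly the same ratio where both measured a subunit gene. High minus low was 0.12 for SDH2 on array 3, -0.04 for SDH3 on array 2, and -0.05 and -0.14 for SDH4 on arrays 1 and 2. In all, 13 scan values of SDH2, SDH3 and SDH4 were present, and they ran from -3.81 to -2.70.

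Against all genes on the same array, the subunit genes lay at the lower end. SDH3 was number 2 from the lowest of 5273 genes with a value on array 1, number 6 of 4872 on array 2 and number 1 of 4509 on array 3. SDH4 was number 12, 18 and 2 on these arrays, so that SDH3 and SDH4 were the lowest pair on array 3. SDH2 was number 5, 10 and 4, and SDH1 number 90 and 31 on arrays 1 and 2. By their mean over arrays, SDH3, SDH2 and SDH4 were number 1, 4 and 5 from the lowest of the 4312 genes tested.

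**Figure D2:**
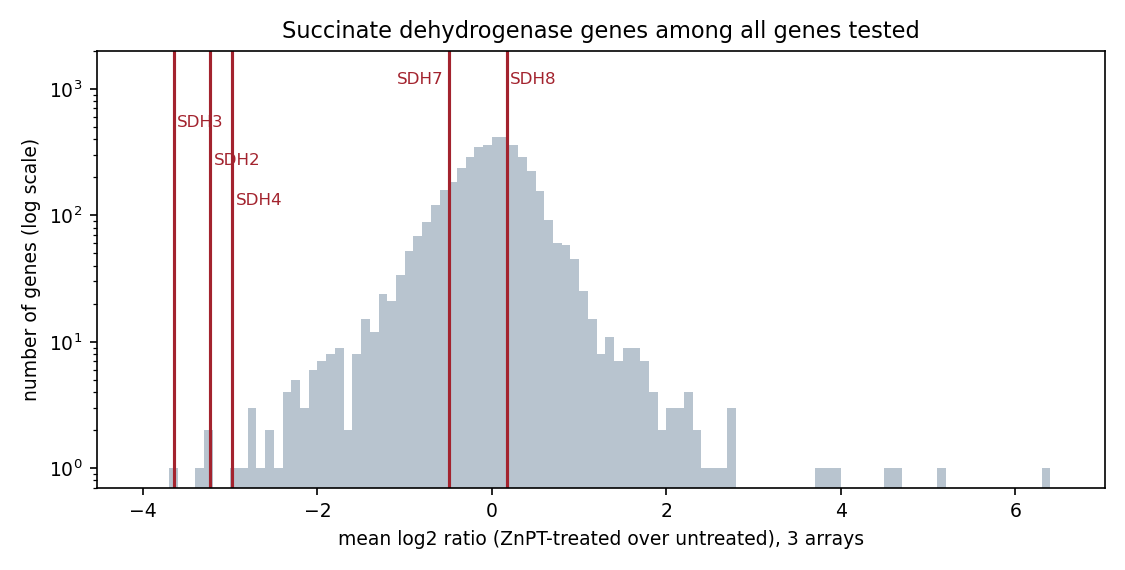
Number of genes (log scale) by mean log2 ratio of treated over untreated cells for the 4312 genes with values on all 3 arrays, with red lines at the 5 succinate dehydrogenase genes among them. SDH3, SDH2 and SDH4 lie at the lower edge at -3.65, -3.23 and -2.98, and SDH7 and SDH8 lie within the bulk at -0.49 and 0.17.

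Of the measured assembly factor genes, SDH5 was close to 0, SDH7 was somewhat below 0 and SDH8 varied between arrays. SDH5 (YOL071W), whose product is required for flavin attachment to Sdh1, had log2 ratios of 0.13 and 0.08 on arrays 1 and 2, a mean of 0.11 ± 0.04 (SD, n = 2). SDH7 (YDR511W), which encodes a small factor that helps mature Sdh2, had -0.23, -0.44 and -0.80 on arrays 1, 2 and 3, a mean of -0.49 ± 0.29 (SD, n = 3), and was not called in the fit over all genes. SDH7 was below 0 on each array, by less than any subunit gene. With each scan centred within sets of 36 spots, SDH7 stood at -0.63 and was called lower, as 438 of all genes tested then were.

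SDH8 (YBR269C), the gene of a chaperone of the flavin-bearing Sdh1, went both ways. Its log2 ratio was 0.85 on array 1, -0.65 on array 2 and 0.31 on array 3, a mean of 0.17 ± 0.76 (SD, n = 3), and it was not called. The scans of each array had the same sign, at 0.91 and 0.79 on array 1, -0.34 and -0.97 on array 2, and 0.37 and 0.26 on array 3 (high, then low power), so the arrays differed by more than the scans. SDH6 (YDR379C-A), whose product acts with Sdh7 on Sdh2, has no value here.

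Set against the subunits on the same array, the assembly factors were higher by a wide margin. The median of the measured assembly factor genes was 0.13, -0.44 and -0.24 on arrays 1, 2 and 3, against -2.90, -3.14 and -3.40 for the subunit genes. The difference was 3.03, 2.70 and 3.16, a mean of 2.96 ± 0.24 (SD, n = 3), over whichever members an array measured.

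The paralogs of the subunit genes had ratios closer to 0. SDH9 (YJL045W), which encodes a minor isozyme of the flavin subunit, had log2 ratios of 0.48 and -0.27 on arrays 1 and 2, a mean of 0.10 ± 0.53 (SD, n = 2). SDH9 minus SDH1 was 2.15 and 2.13, both from high-power scans alone. How far this difference varies between arrays cannot be told from so few values. Of 3 further paralogs outside the SDH names, SHH3 (YMR118C), related to SDH3, had 0.23 and 0.08 on the same arrays. SHH4 (YLR164W), which is related to SDH4 and encodes a possible alternate anchor subunit, was at -0.62 and -0.73, a mean of -0.67 ± 0.08 (SD, n = 2).

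SHH3 minus SDH3 was 3.71 and 3.73, and SHH4 minus SDH4 was 2.10 on both arrays. TIM18 (YOR297C), a protein import gene related to SDH4, had 0.26, 0.44 and -0.14 on arrays 1, 2 and 3 and was not called (limma adjusted p = 0.49). TIM18 minus SDH4 was 2.98, 3.27 and 3.26. A cDNA spot can bind the transcript of a related gene, and how far the spots of these pairs share signal was not tested.

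Genes beside the subunit genes on the chromosome were mostly near 0. Among the 2 protein-coding genes on each side of SDH1, SDH2, SDH3 and SDH4 in the RefSeq gene order, 15 of 16 had a value, with means from -1.15 to 0.89 and a median of 0.19. Of the 12 tested, limma called 1 at an adjusted p under 0.05, against 17.7% of all genes tested in either direction. That one was RPT1, a proteasome gene 2 places from SDH1, which was higher with 0.83, 0.94 and 0.90 on arrays 1, 2 and 3. The lowest was CSN9 next to SDH4, a signalosome subunit gene that rested on 1 array at -1.15. The immediate neighbours of SDH3 were MRP8 at 0.22 ± 0.60 and TGL1, a sterol esterase gene, at 0.47 ± 0.32 (SD, n = 3 each).

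**Figure D3:**
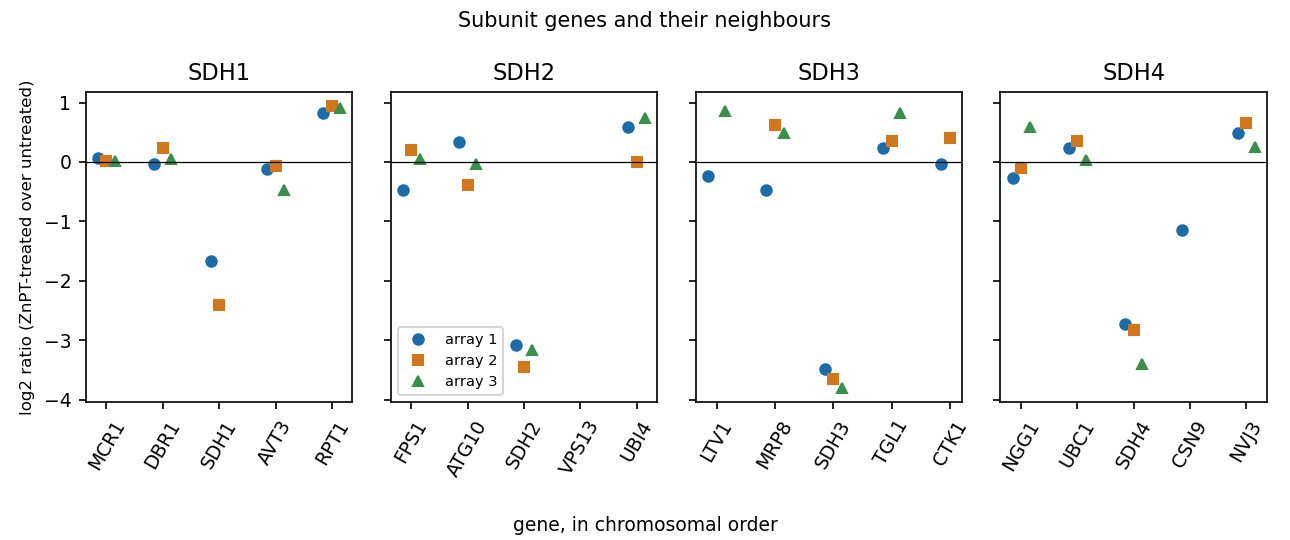
Log2 ratios of treated over untreated cells on arrays 1, 2 and 3 for SDH1, SDH2, SDH3 and SDH4 and the 2 protein-coding genes on each side of each, in chromosomal order (VPS13 has no value). Each subunit gene lies below all its measured neighbours, whose means run from -1.15 to 0.89.

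Spot numbers place the subunit genes in 3 sets of 36 spots, whose other spots had medians on both sides of 0. SDH3 and SDH4 share 1 set by the first digits of their numbers. The other spots of that set, with both scans averaged, had medians of 0.10, -0.18 and 0.00 on arrays 1, 2 and 3. SDH2 lay in another set, where the other spots had medians of -0.01, 0.05 and 0.18. In the set of SDH1 they had medians of 0.40 and 0.37 on arrays 1 and 2, the arrays that measured SDH1, and 0.02 on array 3. With each scan centred within these sets, SDH1 stood at -2.34, and the part of the set in its ratio was not tested.

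Partner genes of succinate dehydrogenase were then described from 13 lists, which together hold 134 genes. Of the 101 tested, 37 fell and 9 rose (3, 4 and 5 rose without replicates 1, 2 and 3), which is 36.6% lower and 8.91% higher against 9.6% and 8.12% of all 4312 genes. The median of these 101 log2 ratios was -0.27, beside 0.03 over all genes tested. The lists were chosen with earlier results of these data known, so the shares are a description and not a test. The lists differed widely among themselves, as the plot of partner gene lists shows.

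Complex III, which takes the electrons on from ubiquinol, had the lowest median among partner lists with at least 3 genes tested. All 7 tested of its 9 subunit genes fell, with a median of -2.20 (limma, each at an adjusted p under 0.05). CYT1, the gene of cytochrome c1, was lowest with -3.00, -3.42 and -3.37 on arrays 1, 2 and 3, or 9.6-fold lower (limma adjusted p = 8e-05). QCR7 stood at -2.79 ± 0.29 and QCR6 at -2.23 ± 0.17 (SD, n = 3 each; limma adjusted p = 0.00017 and 0.00021). Of the 7 complex III assembly genes on the list, 4 were tested and 1 fell, with a median of -0.51, and 4 were called lower without replicate 3 or when 2 arrays sufficed. That one was CYT2, which encodes the enzyme that attaches heme to cytochrome c1, at -1.95 ± 0.35 (SD, n = 3; limma adjusted p = 0.00065).

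In complex IV, cytochrome c oxidase, 5 of 6 tested subunit genes fell, with a median of -1.45. COX6 stood at -2.78 ± 0.58, COX4 at -2.73 ± 0.16 and COX5A at -2.05 ± 0.34 (SD, n = 3 each; limma adjusted p = 0.00039, 0.00015 and 0.00053). Of 17 tested complex IV assembly genes, 9 fell, with a median of -0.63. COX10, of the heme A pathway, stood at -1.47 ± 0.19, PET100 at -1.44 ± 0.17 and COX17, a copper carrier gene, at -1.42 ± 0.40 (SD, n = 3 each; limma adjusted p = 0.0012, 0.0013 and 0.0036). Without replicate 1 and without replicate 2 the count of complex IV assembly genes called lower was 5 and 4, and without replicate 2 that of the complex IV subunit genes was 3. In all 3 complexes the median of the tested subunit genes lay below that of the tested assembly genes, which was -0.16 over the 2 tested SDH assembly factors.

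**Figure D4:**
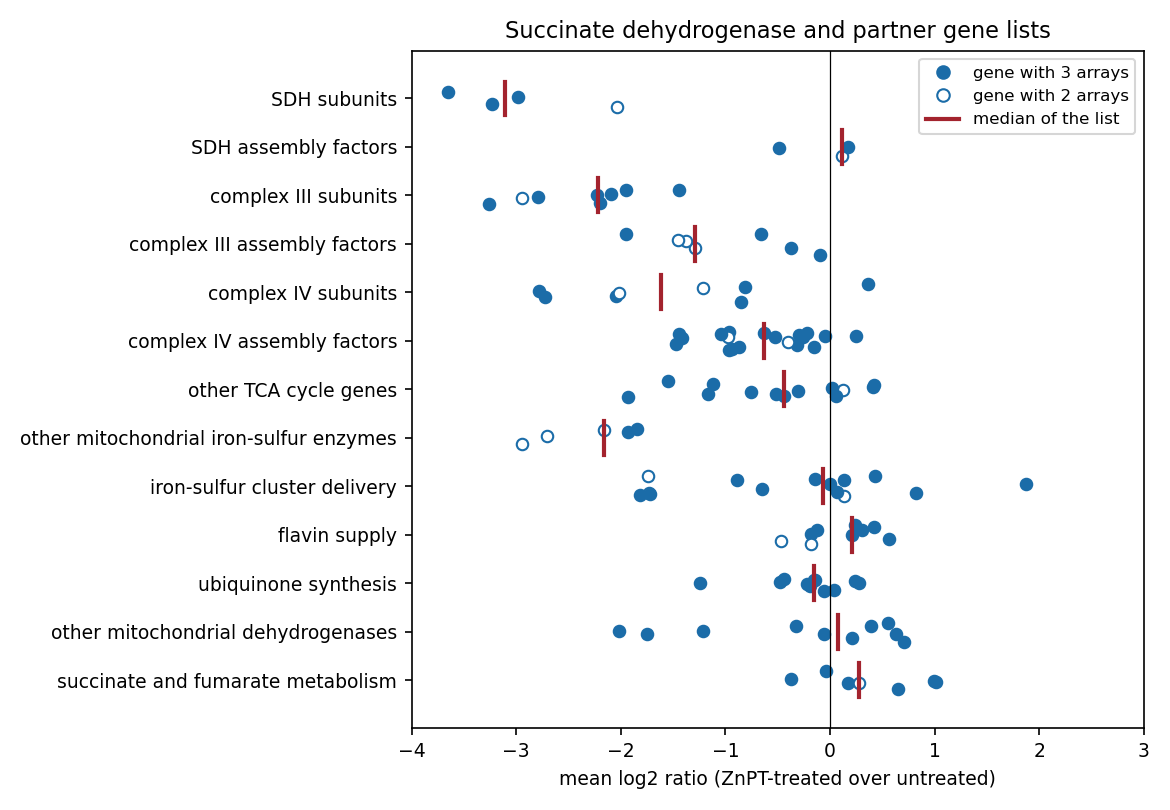
Mean log2 ratio of treated over untreated cells for each gene with values on 2 arrays (open) or 3 arrays (filled), by list, with the median of the plotted genes as a red line. Subunit genes of succinate dehydrogenase (median -3.11), complex III (-2.22) and complex IV (-1.62) lie to the left of their assembly factors (0.11, -1.29 and -0.63).

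Among the other TCA cycle genes, 5 of 12 tested fell, with a median of -0.48. ACO1, which encodes aconitase, an iron-sulfur enzyme, was lowest with -1.78, -2.04 and -1.96 on arrays 1, 2 and 3 (limma adjusted p = 0.00035). KGD1 and KGD2, which encode components of the α-ketoglutarate dehydrogenase complex upstream of succinate, stood at -1.55 ± 0.53 and -1.17 ± 0.26 (SD, n = 3 each; limma adjusted p = 0.0041 and 0.0046). Of the genes for the steps next to succinate dehydrogenase, picked for their place in the cycle after their values were seen, none was called. LSC1 and LSC2, which encode both subunits of succinyl-CoA ligase, had opposite mean signs, with 0.37, 0.50 and 0.36 for LSC1 and -0.01, -0.31 and -0.99 for LSC2 on arrays 1, 2 and 3 (limma adjusted p = 0.1 and 0.19). FUM1, the fumarase gene, had 0.03, 0.16 and -0.01 (limma adjusted p = 0.8).

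Succinate and fumarate are also used outside the cycle. Of the list of genes for those uses, 3 of the 6 tested rose, with a median of 0.41, where 8.12% of all genes tested rose. FRD1, the gene of a soluble fumarate reductase that catalyses the reverse reaction, had 1.00, 1.08 and 0.94 on arrays 1, 2 and 3, or 2.01-fold higher (limma adjusted p = 0.0053). DIC1, a mitochondrial dicarboxylate carrier gene, stood at 0.99 ± 0.19 (SD, n = 3; limma adjusted p = 0.0068). With each replicate left out in turn, the number that rose was 1 to 2 (1 without replicate 1).

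Genes for the supply of flavin and of iron-sulfur clusters were mixed, and no list of heme synthesis genes was made. Of 7 tested flavin supply genes, 1 rose, with a median of 0.24, where 8.12% of all genes tested rose and 9.6% fell. That gene was RIB1, which encodes the first enzyme of riboflavin synthesis, at 0.56 ± 0.12 (SD, n = 3; limma adjusted p = 0.046), and its call ended when any 1 replicate was left out and with each scan centred on its median (limma adjusted p = 0.057). Of 11 tested genes of iron-sulfur cluster synthesis and delivery, 2 rose and 3 fell (5 without replicate 3), with a median of -0.00.

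ISU2, a scaffold gene on which clusters are built, rose at 1.87 ± 0.27 and NFS1, the cysteine desulfurase gene, at 0.82 ± 0.30 (SD, n = 3 each; limma adjusted p = 0.00058 and 0.019). GRX5 and NFU1, whose products act in the later transfer of clusters, fell at -1.82 ± 0.31 and -1.72 ± 0.11 (SD, n = 3 each; limma adjusted p = 0.00072 and 0.00053). MGE1, a nucleotide exchange factor of the mitochondrial Hsp70, fell at -0.65 ± 0.33 (SD, n = 3; limma adjusted p = 0.047). The call of NFS1 ended without replicate 1 and without replicate 2, and that of MGE1 too.

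Other mitochondrial iron-sulfur enzymes were few on the complete set: ACO1 and ILV3 were the 2 tested of 7, and both fell (5 genes of this list were called lower when 2 arrays sufficed). ILV3, the dihydroxyacid dehydratase gene of branched-chain amino acid synthesis, stood at -1.85 ± 0.24 (SD, n = 3; limma adjusted p = 0.00056). Of 11 tested ubiquinone synthesis genes, 1 fell, a share of 9.09% against 9.6% of all genes, with a median of -0.15. COQ6, which encodes a flavin-dependent hydroxylase, was that gene at -1.24 ± 0.37 (SD, n = 3; limma adjusted p = 0.0055).

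Other mitochondrial dehydrogenases, several of which also reduce ubiquinone, split: 3 of 10 tested fell and 2 rose, with a median of 0.07. Of all genes tested, 9.6% fell and 8.12% rose. NDI1, the internal NADH dehydrogenase gene, fell at -2.02 ± 0.44 and CIR2, related to the human electron transfer flavoprotein dehydrogenase, at -1.75 ± 0.23 (SD, n = 3 each; limma adjusted p = 0.00078 and 0.00065). DLD2 fell at -1.21 ± 0.54 (SD, n = 3; limma adjusted p = 0.011), a call that ended without replicate 1 and without replicate 2. GUT2, the mitochondrial glycerol 3-phosphate dehydrogenase gene, rose at 0.71 ± 0.26 and NDE2, an external NADH dehydrogenase gene, at 0.63 ± 0.27 (SD, n = 3 each; limma adjusted p = 0.028 and 0.043). The calls of GUT2 and NDE2 ended when any 1 replicate was left out.

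Of 8 tested regulator genes, 1 rose and 2 fell, with a median of 0.01, where 8.12% of all genes tested rose and 9.6% fell. HAP1 and AFT1, also on that list, had no spot and so no value. HAP4, the gene of the activating subunit of the Hap complex, had -1.60, -1.72 and -1.36 on arrays 1, 2 and 3, or 2.95-fold lower (limma adjusted p = 0.00089). HAP3 had -1.55 and -0.96 on arrays 1 and 2 and was not tested, HAP5 had 0.59 and -0.45 on arrays 1 and 3, and HAP2 stood at -0.15 ± 0.33 (SD, n = 3; limma adjusted p = 0.6). HAP4 and HAP3 were below 0 wherever measured, and HAP2 and HAP5 had both signs.

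TIS11, the gene of Cth2, had 1.74, 1.88 and 2.13 on arrays 1, 2 and 3, or 3.77-fold higher (limma adjusted p = 0.00042). CTH1, its homolog, had -1.95, -1.46 and -1.84, or 3.36-fold lower (limma adjusted p = 0.0007). The 2 related genes moved in opposite directions. Not called were MIG1, a glucose repressor gene, at 0.50 ± 0.21, SNF1, the gene of the kinase that counteracts it, at -0.27 ± 0.13, CAT8 at 0.25 ± 0.44 and the iron regulator gene AFT2 at 0.16 ± 0.34 (SD, n = 3 each; limma adjusted p = 0.07, 0.26, 0.41 and 0.56). The part of any regulator in the SDH ratios was not tested.

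Among 4312 genes, those with ratios most like the mean of SDH2, SDH3 and SDH4 were ranked by Euclidean distance over the 3 arrays. That mean was -3.09, -3.31 and -3.46 on arrays 1, 2 and 3. All arrays repeat 1 comparison, so the distance mainly orders genes by how near their ratios lie in size, not by a pattern over conditions. CYT1 was nearest at a distance of 0.17, closer to that mean than SDH2 (0.33), SDH4 (0.61) and SDH3 (0.63) themselves. QCR7 and COX4 (0.96 each), CTT1 (0.98), the cytosolic catalase gene, IRC7 (1.02), a gene of cysteine breakdown, COX6 (1.20), KTR6 (1.32), a mannosyltransferase gene, and REE1 (1.32) followed. For SDH1, over arrays 1 and 2 and 4857 genes, the nearest were UBX6 (0.04), TSA1 (0.23), a peroxiredoxin gene, CCC1 (0.33), a vacuolar iron transporter gene, DAP1 (0.34), a heme-binding protein gene, and MRPL50 (0.35), a mitochondrial ribosomal protein gene.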

How the data were processed

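The deposited table gives a 2-dye log ratio per spot and scan, read as log2 from its range, since the lowest value is log2 of 0.01. Per the labels, the authors used spots without a quality flag for LOWESS normalization, which sets the average ratio near 0 and hides a shift shared by most transcripts. The authors' merged values were not used here. Of 6912 spots, 5446 were named by 1 gene, 0 by several and 1466 by none in the platform annotation, and all 5446 matched the RefSeq annotation (R64), used for names and gene order. There were 0 unused sample columns. Spots of a gene were averaged, then the scans of an array. For the 4312 genes with values on all 3 arrays, lmFit and eBayes of limma 3.58.1 in R 4.3.3 tested the mean log2 ratio against 0, with a threshold of 0.05 after Benjamini-Hochberg adjustment. In 1 simulated set of 4312 genes, 4.5%, 49.3% and 84.8% of genes were recovered whose log2 ratio had been moved by 0.5, 1 and 2, with 2 false of 94 calls. Fewer genes were moved in that set than were called in the data, so these percentages may not carry over to the data. Members and lists were chosen with earlier results of these data known. Named were all members, paralogs and regulators, of each other list up to 3 lowest and 2 highest called genes, and the 8 and 5 genes nearest to the SDH2, SDH3 and SDH4 mean and to SDH1. Chromosomal neighbours were added after the data were seen. Alternatives were single laser powers, complete scans, 2 arrays, median centring, quantile normalization, robust eBayes and each replicate left out. Centring within sets of 36 spots was added after the data were seen. Figures used matplotlib 3.10.9.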

Additional observations from a re-analysis of the deposited data

How the results depend on the processing

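SDH2, SDH3 and SDH4 stayed below 0 under every alternative that gave them a value, and without each replicate in turn their log2 ratios ran from -3.30 to -3.12, -3.73 to -3.57 and -3.12 to -2.78. Quantile normalization gave -4.18 for SDH3 and -3.35 for SDH4, and it gave differences of -0.80 for SDH3 minus SDH2, 2.11 for SDH9 minus SDH1, 4.05 for SHH3 minus SDH3, 2.12 for SHH4 minus SDH4, 3.53 for TIM18 minus SDH4 and 3.33 for assembly factors minus subunits. Centring within sets of 36 spots gave -0.12 for SDH5, and differences of -0.89 for SDH2 minus SDH1, -1.19 for SDH3 minus SDH1, -0.42 for SDH4 minus SDH1, 2.32 for SDH9 minus SDH1, 3.40 for SHH3 minus SDH3 and 1.94 for SHH4 minus SDH4. SDH5 was 0.02 in high-power scans, 0.19 in low-power scans and 0.06 with centred scans. SHH4 minus SDH4 was 2.15 in high-power scans and 2.11 with centred scans, and TIM18 minus SDH4 was 2.99 in low-power scans.

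Low-power scans alone and complete scans tested fewer genes (SDH2, SDH3 and SDH4 not among them, so 0 members called). They called 74 and 175 genes higher and 77 and 182 lower, and of the partner genes 2 and 5 higher and 7 and 9 lower. Without each replicate, 132 to 279 genes were higher and 179 to 318 lower (132 and 179 without replicate 1, 137 and 183 without replicate 2). In these fits 3 to 4 members were lower, with 4 without replicate 3, where SDH1 was among the genes tested. Of the partner genes, 3 to 5 were higher and 28 to 44 lower. Of 39 called named genes outside SDH, those that lost a call are given in the report except DIC1 without replicate 1 (limma adjusted p = 0.059). Besides the losses named there, the call of NFS1 ended with centring within sets (limma adjusted p = 0.081), that of MGE1 there, in low-power scans, with quantile normalization and when 2 arrays sufficed (0.066, 0.091, 0.052 and 0.056), and those of NDE2 and RIB1 when 2 arrays sufficed (0.051 and 0.057), NDE2 also with quantile normalization, while MIG1 was called in complete scans (0.046). AFT2 and CAT8, not called, turned to -0.02 and -0.08 with centring within sets, and AFT2 ran from -0.03 to 0.27 without each replicate (-0.03 without replicate 3). SDH8 ran from -0.17 to 0.58 without each replicate. With centring within sets, SDH7 stood at -0.63 and was called lower, so that 4 members were lower, beside 438 genes over the whole table. No paired analysis was possible because each ratio already pairs both cultures of an array and there is 1 group of ratios.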
